A study of Mus musculus with 8 samples.

Results

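The nuclei described here are those that the authors assigned to the iris pigment epithelium (iris PE) in the 3 untreated libraries of a single nucleus RNA-seq series from mouse irides. They numbered 3719 of the 14365 untreated nuclei, with 342 in untreated replicate 1, 1663 in replicate 2 and 1714 in replicate 3. The series held 34357 nuclei in 8 libraries, of which 8704 were iris PE. Each library was made from a pool of irides of wild type albino female mice, dissected with a variable amount of ciliary body. Untreated mice received no drops. The 3 constricted libraries came from mice given hourly pilocarpine, a muscarinic agonist, and kept in the light, and the 2 dilated libraries came from mice given hourly phenylephrine, an alpha adrenergic agonist, with cyclopentolate, a muscarinic antagonist, and kept in the dark. The drug and the lighting therefore cannot be told apart in either treated group.

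The iris PE is the posterior epithelial layer of the iris, and it is described as deriving from the rim of the optic cup. The same origin is given for the dilator muscle, the sphincter muscle and the epithelia of the ciliary body. From lineage tracing, the study instead proposes a model in which neural crest cells supply most progenitors of iris PE, dilator muscle and sphincter 2. The cells of the iris PE are joined to one another and to the anterior layer that forms the dilator. In pigmented animals they are packed with melanosomes, the organelles that make and store melanin. Pigment cells of neural crest origin lie in the stroma and make melanin with the same enzymes. The assignments set beside iris PE were ciliary body epithelium (CBE), ciliary body (CB, which the study describes as not epithelial), dilator muscle, sphincter 1, sphincter 2, stroma 1, stroma 2, endothelial cells and leukocytes.

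Levels were computed as UMIs (unique molecular identifiers, each standing for 1 captured transcript) summed over the nuclei of a cell type in a library, divided by the total of that sum and multiplied by 1000000 (CPM). Nuclear transcripts were counted over exons and introns, so levels are compared for 1 gene across cell types and not between genes of different length. The cell types were made from the same counts over all genes, so a difference between iris PE and another type is given as a description with no test. A gene was called higher or lower in iris PE than in another type where mean CPM + 1 differed by at least 2-fold, the direction was the same in 3 of 3 libraries and the higher type reached 20 CPM.

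Untreated replicate 1 stood apart from the other untreated libraries. Its iris PE nuclei carried 1196394 UMIs, against 5027307 and 5628032 in replicates 2 and 3, although the median nucleus was as deep, with 3581 UMIs against 3015 and 3225.5. Among the 7640 genes of at least 20 CPM in iris PE, R2 of the log10 levels was 0.995 between replicates 2 and 3, and 5 genes (0.0654%) lay at least 2-fold apart. Between replicate 1 and replicate 2, R2 was 0.967 and 171 genes (2.24%) lay 2-fold apart. Some nuclear barcodes occurred in more than 1 library. Untreated replicate 1 and dilated replicate 1 shared 63 barcodes, 59 of them with the same assigned cell type, and the median depth of these nuclei was 5479 UMIs in the untreated library and 960 in the dilated one. In iris PE, 14 of the 342 nuclei of untreated replicate 1 (4.09%) had a barcode that another library also held, against 0.601% and 1.11% in replicates 2 and 3. Among the CB nuclei of untreated replicate 1 the share was 24.7%. Without every such nucleus, 430 genes were higher and 499 lower in iris PE than in CBE, against 421 and 501 with them.

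The sequences that frame the pigment readout of iris PE are the promoters of the melanin genes, because the transcription factor MITF is known to bind the motif called the M-box (TCATGTG) in several of them. The capitals mark the M-box, the strand is that of the transcript, and the sequences and start sites are those of RefSeq on GRCm38.p6. *Tyr* encodes tyrosinase, the first enzyme of melanin synthesis, and *Tyrp1* and *Dct* encode the related enzymes of the eumelanin branch. *Trpm1* encodes a channel of melanocytes and retinal bipolar cells. The windows are chr7:87493513-87493559 (minus strand, *Tyr*), chr4:80834141-80834197 (plus strand, *Tyrp1*), chr14:118052366-118052422 (minus strand, *Dct*) and chr7:64153668-64153724 (plus strand, *Trpm1*).
Tyr: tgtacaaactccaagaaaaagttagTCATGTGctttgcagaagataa
Tyrp1: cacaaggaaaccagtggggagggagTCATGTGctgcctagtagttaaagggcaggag
Dct: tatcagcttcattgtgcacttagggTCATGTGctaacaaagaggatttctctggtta
Trpm1: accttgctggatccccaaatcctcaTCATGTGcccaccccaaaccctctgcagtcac

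The promoter windows ran from 250 bases before to 50 bases after the annotated start, and both TCATGTG and its reverse complement CACATGA were counted. The motif was in 6 of the 21 melanin genes with a window (28.6%), namely *Tyr*, *Tyrp1*, *Dct*, *Slc24a5*, *Trpm1* and *Hps1*. Its first base lay 22 bases before the start in *Tyr*, 47 bases in *Tyrp1*, 151 bases in *Dct* and 142 bases in *Trpm1*. The *Dct* window also held the reverse complement CACATGA, 232 bases before the start. It was in 4.31% of the 27025 genes with a window in the whole table and in 2.69% of the 5875 of these that reached 20 CPM in iris PE. Among the genes that led in iris PE, described further on, it was in 1 of 26 (*Cpne4*). A second motif, TAATCC or its reverse complement GGATTA, of the type bound by OTX factors, was in 4 of the 21 melanin genes (19.0%), in 3 of the 26 leading genes (11.5%) and in 8.14% of all genes with a window. A match is a run of letters in these windows and was not tested as a binding site.

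The assignment was first set against the 5 markers given for iris PE, which were *Cdh18*, *Zic1*, *Tbx20*, *Tnr* and *Wnt16*. Iris PE was the highest of the 10 types on average for 4 of them, and each was well above its level in dilator muscle and in both stromal types. *Cdh18* and *Wnt16* were at least 2-fold above every other type. *Zic1* was shared with CBE, *Tbx20* was shared in part with CBE and sphincter 1, and *Tnr* was shared with CB. Taken as a set, 74.9% of iris PE nuclei carried a UMI of at least 4 of the 5 markers, against 12.5% to 16.5% of CBE nuclei by library, 6.71% of the 149 endothelial nuclei, 3.68% of sphincter 1 nuclei and 0 of 1292 stroma 1 nuclei. The 57 iris PE nuclei (1.53%) with 0 or 1 marker remained in the group.

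*Cdh18*, on chr15:22549022-23474418 (mm10, plus strand), encodes a cadherin, a calcium dependent adhesion protein. Its levels in iris PE were 1469, 1528 and 1508 CPM in untreated replicates 1, 2 and 3, a mean of 1502 ± 29.8 (SD, n = 3). CBE, the next highest type, had 336 CPM, so the ratio was 4.45-fold, and all 3 iris PE values lay above every other value. *Wnt16*, on chr6:22288227-22298522 (plus strand), encodes a secreted Wnt ligand. It measured 449, 625 and 647 CPM in iris PE (574 ± 109) and 234 CPM in sphincter 1, a ratio of 2.45-fold, with replicate 1 the lowest of the iris PE values.

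*Zic1*, on chr9:91358058-91365810 (minus strand), encodes a zinc finger transcription factor of the dorsal neural tube and eye. It measured 701, 767 and 825 CPM in iris PE (764 ± 61.8), against 705 ± 160 CPM in CBE, and the values of these types overlapped. The other 8 types had between 13.9 CPM in dilator muscle and 81.4 CPM in leukocytes. *Tbx20*, on chr9:24718138-24774303 (minus strand), encodes a T-box transcription factor best known in the heart. It measured 933, 625 and 632 CPM in iris PE, 432 ± 216 CPM in CBE and 289 ± 80.4 CPM in sphincter 1, and here replicate 1 was the highest library in all 3 types. *Tnr*, on chr1:159523769-159931729 (plus strand), encodes tenascin-R, a matrix protein of perineuronal nets. Its mean of 1119 ± 61.9 CPM in iris PE was close to the 1185 ± 301 CPM of CB, and it was 243 CPM in CBE, the type nearest to iris PE over all genes.

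**Figure D1:**
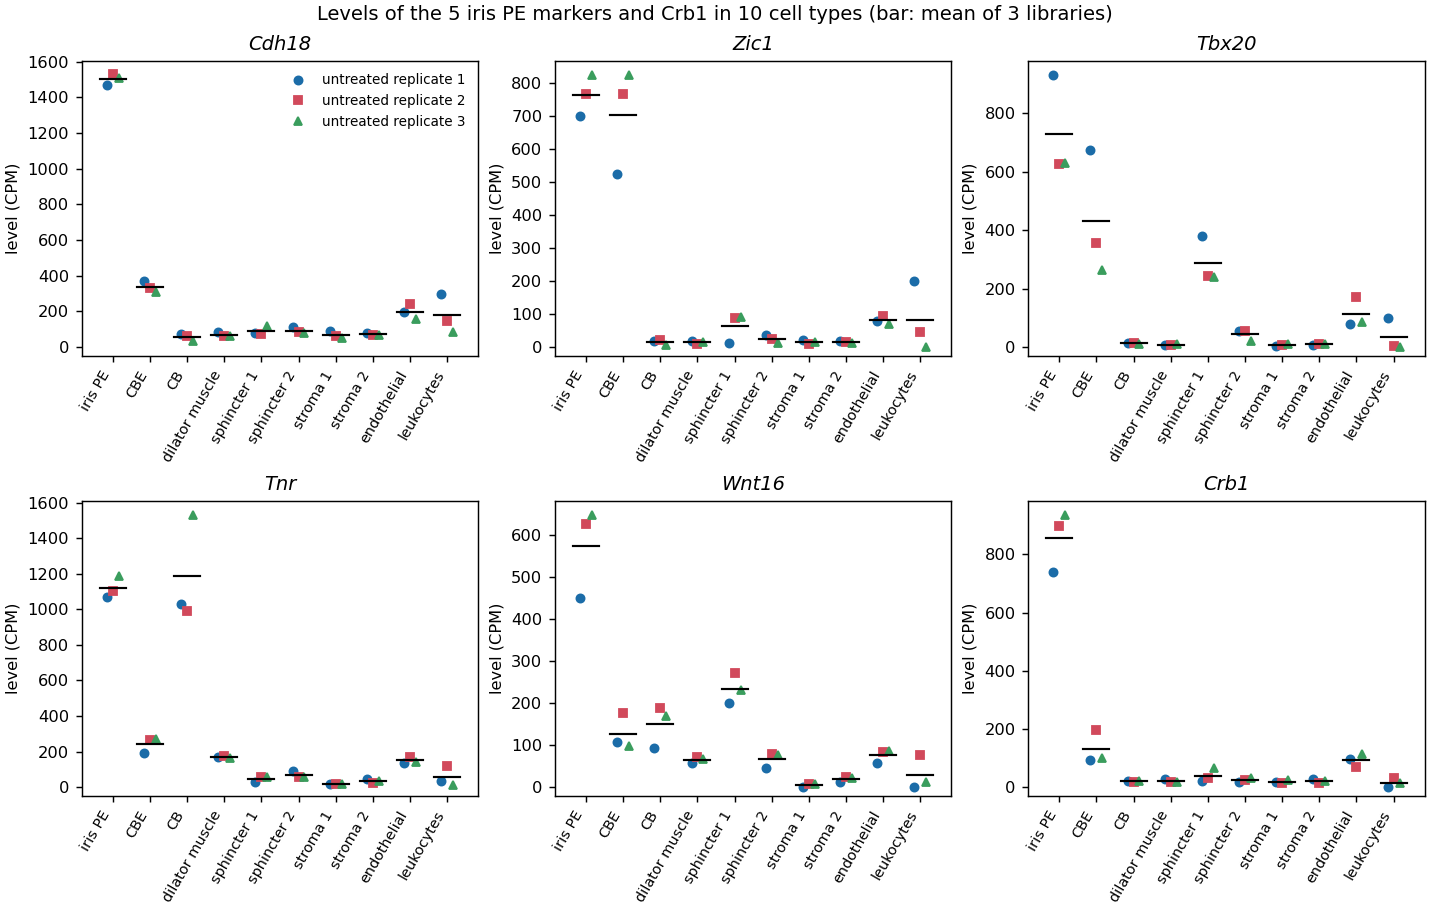
Levels of the 5 iris PE markers and *Crb1* (CPM, vertical axis) in the 10 cell types, with 1 point per untreated library and a bar at the mean of 3. *Cdh18* and *Crb1* stand above every other type, at 1502 and 858 CPM, while *Zic1* overlaps CBE and *Tnr* overlaps CB.

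The share of iris PE nuclei with at least 1 UMI was 86.3% for *Cdh18*, 83.4% for *Zic1*, 73.7% for *Tbx20*, 84.6% for *Tnr* and 74.8% for *Wnt16*. In stroma 1 the shares were 15.6%, 3.95%, 2.09%, 4.26% and 1.63% in the same order. The median depths there were 3113, 2624 and 2678 UMIs in the 3 libraries. After thinning every nucleus to 1000 UMIs, which left out 37 iris PE nuclei, the iris PE shares were 66.4%, 51.6%, 42.4%, 59.2% and 41.5%. The thinned shares in stroma 1 were 5.23%, 2.11%, 0.625%, 2.19% and 0.547%, so the stroma 1 values were far below those of iris PE at equal depth.

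Marker genes of the other cell types were summed in iris PE to show what else the nuclei held. The 5 stroma 1 markers summed to 21.2 ± 3.54 CPM, of which *Ednrb* gave 5.79. The 5 stroma 2 markers summed to 58.4 ± 15.9 CPM (*Tfap2b* 16.9), the 8 endothelial markers to 48.9 ± 27.5 CPM (*Tek* 16.8) and the 7 leukocyte markers measured to 47.2 ± 18.0 CPM (*Cx3cr1* 26.7). The 7 sphincter markers summed to 264 CPM (*Rbfox3* 159) beside 12524 CPM in sphincter 1, the 8 dilator markers to 546 CPM (*Unc13c* 350) beside 7470 CPM in dilator muscle, and the 8 CBE markers to 834 ± 181 CPM (*Sned1* 472) beside 12424 CPM in CBE. None of the measured members of these 7 lists was at 0 in iris PE. Part of these levels may lie in the iris PE cells themselves, and the part of other cells in them was not tested.

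A gene was taken to lead in iris PE where it reached 20 CPM, was above each of the other 9 types in each of the 3 libraries, and was at least 2-fold above the next highest type. This held for 34 of the 7640 genes at that level (0.445%). Few genes led in dilator muscle and sphincter 2 as well (33 and 32), whereas 160 led in CBE, 135 in CB, 142 in sphincter 1, 309 in stroma 1 and 779 in leukocytes. For 13 of the 34 genes the next highest type was CBE. Iris PE was thus set apart from the other 9 types by a short list of genes. It held protein coding genes of varied function and some noncoding RNAs.

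*Crb1*, on chr1:139197056-139377100 (minus strand), encodes an apical polarity protein of retinal glia and photoreceptors, and variants of its human counterpart are a known cause of inherited retinal dystrophy. It measured 740, 897 and 937 CPM in iris PE (858 ± 104), against 130 CPM in CBE, a ratio of 6.57-fold. *Matn3*, encoding the matrix protein matrilin-3 of cartilage, measured 772, 745 and 669 CPM (729 ± 53.4), 3.49-fold above CBE. *Smoc2*, encoding a secreted calcium binding matrix protein, had a low level, with 12.5, 21.9 and 28.3 CPM. Its mean was 6.89-fold above that of sphincter 2, which held only 4 *Smoc2* UMIs, and within single libraries its log2 ratio to the highest other type was lower, from 1.64 to 2.42, against 2.18 to 3.01 for *Crb1*. *Fmn2*, encoding a formin that nucleates actin filaments, measured 538 ± 10.9 CPM and was 2.46-fold above sphincter 1.

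Of the receptors and signalling genes, *Bmpr1b*, encoding a type I BMP receptor, measured 405 ± 35.3 CPM and was 4.40-fold above endothelial cells, the next highest. The endothelial mean of 91.1 ± 52.7 CPM rested on 38 UMIs. Endothelial cells, with few nuclei, were the next highest type for 6 of the 34 leading genes. *Edar*, the ectodysplasin receptor gene, measured 23.1 CPM, and *Grem1*, encoding a secreted BMP antagonist, also led in iris PE. Among the channel and transporter genes, *Abcc8*, encoding the sulfonylurea receptor subunit of ATP sensitive potassium channels, measured 50.8 ± 7.77 CPM (5.19-fold over sphincter 2), and *Ano4*, an anoctamin gene, 362 ± 43.8 CPM (3.55-fold over sphincter 1). *Kcnmb4* (101 CPM) and *Lrrc52* (131 CPM) encode auxiliary subunits of BK type potassium channels. *Alpl*, the gene of tissue nonspecific alkaline phosphatase, measured 141 CPM, and *Car5b*, of a mitochondrial carbonic anhydrase, 72.4 CPM.

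*Tfec*, a transcription factor gene related to *Mitf*, also led and measured 209, 244 and 267 CPM in iris PE (240 ± 29.2). Dilator muscle was next with 105 CPM, and CB held 1 *Tfec* UMI in all. The pooled ratio of iris PE to CB was 288-fold, with a 95% interval of 51.7 to 11398 that covers counting error only. The list also held the long noncoding RNA *A330102I10Rik* (117 CPM) and *Slc27a6*, a fatty acid transport protein gene (55.2 CPM). When endothelial cells and leukocytes, the types with fewest nuclei, were left out of the comparison, 46 genes led, all 34 among them.

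**Figure D2:**
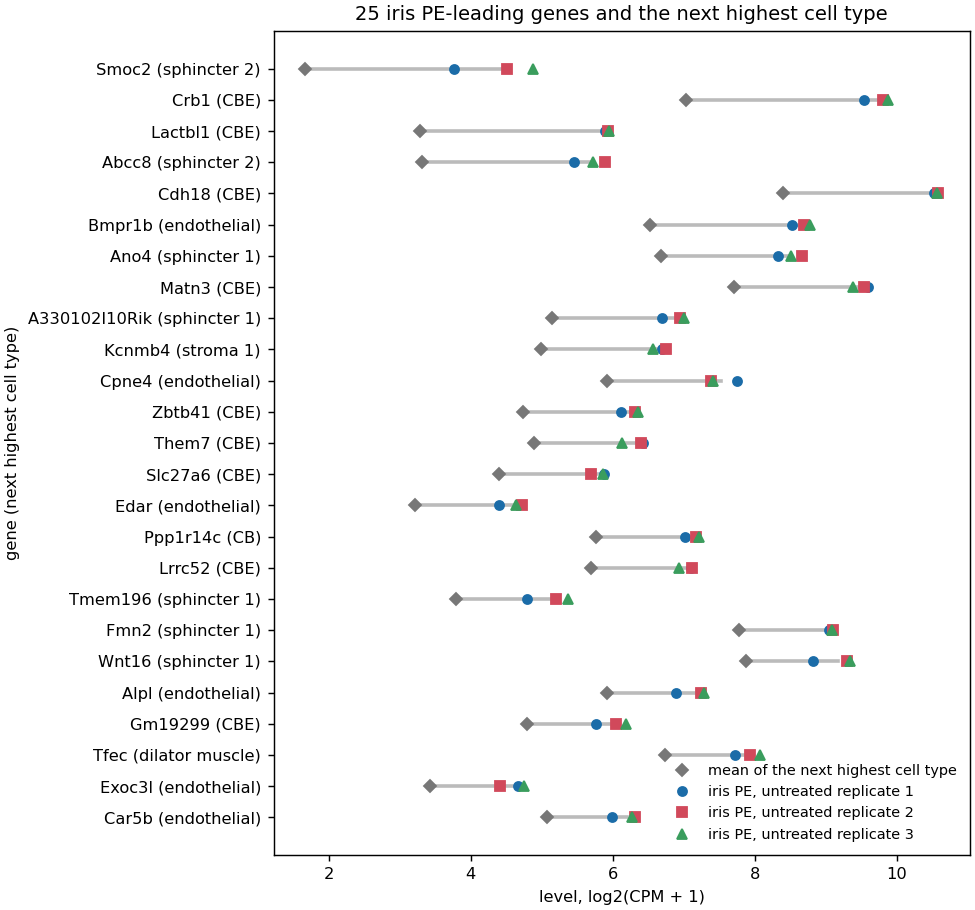
The 25 genes with the largest ratio of iris PE to the next highest cell type (named in brackets), on a horizontal axis of log2(CPM + 1), with iris PE in 3 untreated libraries as coloured points and the mean of the next type as a grey diamond. Every iris PE point lies to the right of its diamond, as for *Crb1* with 858 CPM beside 130 CPM in CBE. The ratio of *Smoc2* rests on 4 UMIs in sphincter 2.

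The opposite end was searched with another rule, which set no fold. Of 2018 genes with at least 50 CPM in each of the other 9 types, 5 (0.248%) were lowest in iris PE in all 3 libraries. They were *Med13l*, *Gtpbp2*, *Gmds*, *Zfp609* and *Exoc4*, and none was 2-fold below the next lowest type, with log2 ratios from -0.47 to -0.13. *Gmds*, encoding the first enzyme of GDP-fucose synthesis, measured 104.8 ± 9.05 CPM in iris PE, 117.5 CPM in CB, the next lowest type, and 1092 CPM in stroma 2, the highest.

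Over all genes, the nearest type to iris PE was CBE, followed by dilator muscle and CB. Between profiles averaged over the 3 libraries, R2 of log10(1 + counts per 10000) was 0.871 with CBE, 0.826 with dilator muscle, 0.771 with CB, 0.738 with sphincter 2 and 0.686 with sphincter 1. Within single libraries it ran from 0.848 to 0.868 with CBE, from 0.819 to 0.822 with dilator muscle and from 0.749 to 0.761 with CB. It was lower with endothelial cells (0.628), stroma 1 (0.593), stroma 2 (0.587) and leukocytes (0.487). The shares of genes called higher and lower in iris PE were 13.4% and 10.5% against sphincter 1, 10.1% and 9.71% against sphincter 2, and 15.3% and 11.7% against stroma 1. They were 13.5% and 12.3% against stroma 2, 14.8% and 15.1% against endothelial cells, and 19.4% and 19.7% against leukocytes. CBE, dilator muscle, CB and both sphincter types thus came before the other types. The types differ in the number of nuclei summed (373 for CBE, 346 for CB, 4357 for dilator muscle and 149 for endothelial cells), which bears on these values.

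Against CBE, 421 of 8267 genes (5.09%) were higher and 501 (6.06%) were lower in iris PE. Among the 10 largest ratios in the higher direction were those of a ligand and its receptor. *Kitl*, encoding the ligand of the KIT receptor, measured 58.8 ± 6.59 CPM in iris PE beside 3.91 ± 3.79 CPM in CBE (log2 ratio 3.61), and *Kit* itself measured 47.1 ± 4.87 and 4.97 ± 5.80 CPM (log2 ratio 3.01). *Bmpr1b* (405 against 45.6 CPM) and *Epha4*, an ephrin receptor gene (408 against 51.3 CPM), differed by log2 ratios of 3.12 and 2.97, and *Tyr* measured 1959 against 244 CPM. *Smoc2* had 2 UMIs in CBE, and its pooled ratio was 15.5-fold (95% interval 4.24 to 128, counting error only). *Grem1*, *Ablim3*, *Hsf4* and *Adamts18* completed the list.

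Among the 10 largest ratios in the other direction were those of some transporter genes. *Slc6a6*, the taurine transporter gene, measured 24.7 ± 1.74 CPM in iris PE beside 3229 ± 702 CPM in CBE (log2 ratio -6.97). *Slc26a4*, encoding the anion exchanger pendrin, measured 1.46 against 306 CPM, and *Slc6a13*, a GABA and taurine transporter gene, 4.38 against 409 CPM. *Grin2b*, an NMDA receptor subunit gene, measured 2.98 against 269 CPM and *Megf11* 13.4 against 699 CPM. The 10 genes also held *Gm47144*, *Zfp365*, *Insrr*, *Gm37679* and *2900052N01Rik*, each below 2 CPM in iris PE.

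Against CB, 929 of 8249 genes (11.3%) were higher and 497 (6.02%) were lower. *Mecom*, a zinc finger transcription factor gene, measured 1249 ± 57.8 CPM in iris PE and 14.1 ± 8.31 CPM in CB (log2 ratio 6.38). *Adamts16*, a secreted metalloprotease gene, measured 1197 against 16.8 CPM, and the long noncoding RNA *Rmst* 517 against 7.42 CPM. *Gm1141*, *Ap1s3* and *Grem1* had no UMI in CB, so with a floor of 3 counts over the group they were at least 25.3-, 26.0- and 20.3-fold higher in iris PE. *Gm39075*, with 1 UMI in CB, had a pooled ratio of 176-fold (95% interval 31.6 to 6965), and *Kcnj3* and *Matn3* had log2 ratios of 5.99 and 5.80. Lower in iris PE was *Slc4a4*, the sodium bicarbonate cotransporter gene, with 64.9 ± 5.51 CPM against 6338 ± 401 CPM (log2 ratio -6.59). *Cacng4*, *Igfbp5* and *Reln* were also among the 10 largest in that direction, with log2 ratios of -7.42, -6.43 and -6.12, beside *Gm34609*, *Slc38a11*, *Zfp385b*, *Otx2os1*, *Fhdc1* and *Cdh22*.

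Against dilator muscle, the sister layer of the posterior iris, 558 of 8225 genes (6.78%) were higher and 490 (5.96%) were lower. Transcription factor genes were among the 10 largest ratios in the higher direction. *Tbx20* measured 730 against 7.79 CPM (log2 ratio 6.38), *Zic4* 600 against 7.05 CPM (6.22) and *Zic1* 764 against 13.9 CPM (5.69). *Gm39075* and *Lrrc52* lay between *Zic4* and *Zic1*, with log2 ratios of 5.97 and 5.72, and *Adamts16*, *Mecom*, *Crb1*, *Rmst* and *Frmpd4* followed, from 5.48 to 5.11. The lower group held the receptors that act in the dilator. *Chrm2*, the M2 muscarinic receptor gene, measured 8.62 ± 1.04 against 630 ± 48.4 CPM (-6.03), *Adra1a*, the alpha-1A adrenergic receptor gene, 15.4 ± 1.91 against 479 ± 25.8 CPM (-4.87) and *Nos1*, the neuronal nitric oxide synthase gene, 6.13 ± 1.08 against 246 ± 26.1 CPM (-5.12). *Reln*, *Rspo2*, *Gabra5*, *Dgki*, *Otx2os1*, *AC129186.1* and *4931422A03Rik* were the others of the 10.

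**Figure D3:**
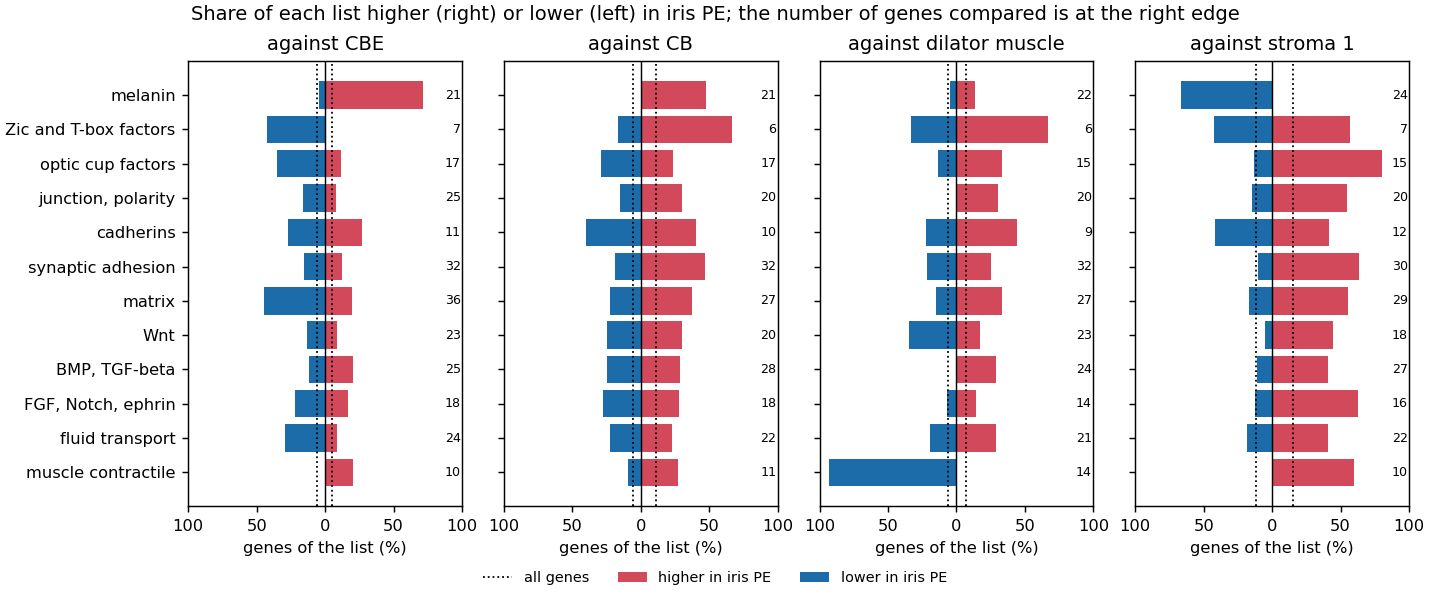
Share of the genes of each list (%, horizontal axis) called higher (red, to the right) or lower (blue, to the left) in iris PE than in CBE, CB, dilator muscle and stroma 1, with dotted lines at the shares over all genes and the number of genes compared at the right edge. The melanin list lies to the right against CBE (15 higher and 1 lower of 21) and to the left against stroma 1 (0 higher and 16 lower of 24).

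The counts by gene list that follow stand beside the shares over all genes, which were 5.09% higher and 6.06% lower against CBE, 11.3% and 6.02% against CB, 6.78% and 5.96% against dilator muscle, and 15.3% and 11.7% against stroma 1. A gene was compared where either type reached 20 CPM. A gene that did so only in the other type could be called lower but not higher. The reverse held for a gene that did so only in iris PE. Melanin genes differed between iris PE and CBE. Of 28 genes of melanin synthesis and the melanosome, 26 were measured and 21 reached 20 CPM in iris PE. Against CBE, 15 of 21 (71.4%) were higher and 1 (4.76%) was lower, with a median log2 ratio of 1.47. Against CB, 10 of 21 (47.6%) were higher and none lower (median 0.87), and against dilator muscle 3 of 22 (13.6%) were higher and 1 (4.55%) was lower (median 0.06). Against stroma 1, the stromal pigment cell type, 0 of 24 were higher and 16 (66.7%) were lower (median -1.59). By these medians iris PE lay above CBE and CB and below stroma 1.

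*Dct* measured 7603, 7024 and 6554 CPM in iris PE, and its mean of 7060 ± 525 CPM stood beside 1367 in CBE, 4836 in CB, 5220 in dilator muscle and 20924 in stroma 1. *Tyr* measured 1854, 1915 and 2107 CPM in iris PE, 244 in CBE, 1214 in dilator muscle and 2477 in stroma 1. *Tyrp1* measured 1025, 1297 and 1376 CPM in iris PE and 2651 in stroma 1. *Oca2*, encoding a melanosomal anion transport protein, measured 1162 ± 41.1 CPM in iris PE and 3583 in stroma 1. These genes shared the order of stroma 1 above iris PE above CBE. *Trpm1*, with 2519 ± 390 CPM, was instead higher on average in dilator muscle (2825 CPM) than in stroma 1 (1674 CPM). *Rab38*, encoding a small GTPase of melanosome transport, set iris PE apart from dilator muscle, with 742 ± 65.7 against 181 CPM. *Mlana*, with 414 ± 23.7 CPM, was the 1 melanin gene with its highest mean in iris PE, followed by dilator muscle with 366 CPM. The mice were albino, and these values measure transcripts, not pigment.

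Transcription factor genes of the optic cup were compared next. *Pax6*, a master gene of eye development, measured 1691 ± 63.4 CPM in iris PE, 1214 in CBE, 1998 in CB and 1506 in dilator muscle, and it was 75.8 CPM in stroma 1. Of 15 optic cup factors compared with stroma 1, 12 (80%) were higher and 2 (13.3%) lower in iris PE. Against dilator muscle 5 of 15 (33.3%) were higher and 2 (13.3%) lower, and against CBE 2 of 17 (11.8%) were higher and 6 (35.3%) lower. Of these factors 14 reached 20 CPM in iris PE, so some of the 17 were compared only because of their level in CBE, which favours lower calls. *Mitf*, the regulator of melanin genes, measured 1025 ± 82.9 CPM in iris PE, close to the 1038 CPM of dilator muscle, with 477 CPM in CBE and 2178 CPM in stroma 1. *Hes1*, a Notch target gene, and *Six3*, an eye field gene, were lower than in CBE, with 65.0 against 400 CPM and 32.3 against 110 CPM.

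Of the Zic and T-box list, none of the 7 genes compared was higher than in CBE, and 3 (42.9%) were lower. Only 5 of the list reached 20 CPM in iris PE, so some of the 7 were compared only because of their level in CBE. *Zic4* measured 600 ± 74.8 CPM in iris PE beside 676 CPM in CBE, and *Zic2* 50.4 ± 3.06 against 152 CPM. *Zic1* and *Zic4* were thus alike in level in iris PE and CBE, while dilator muscle had 13.9 CPM of *Zic1* and 7.05 CPM of *Zic4*. *Tbx2* ran the other way, with 42.2 ± 10.5 CPM in iris PE, 79.3 in CBE, 286 in CB and 162 in dilator muscle.

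**Figure D4:**
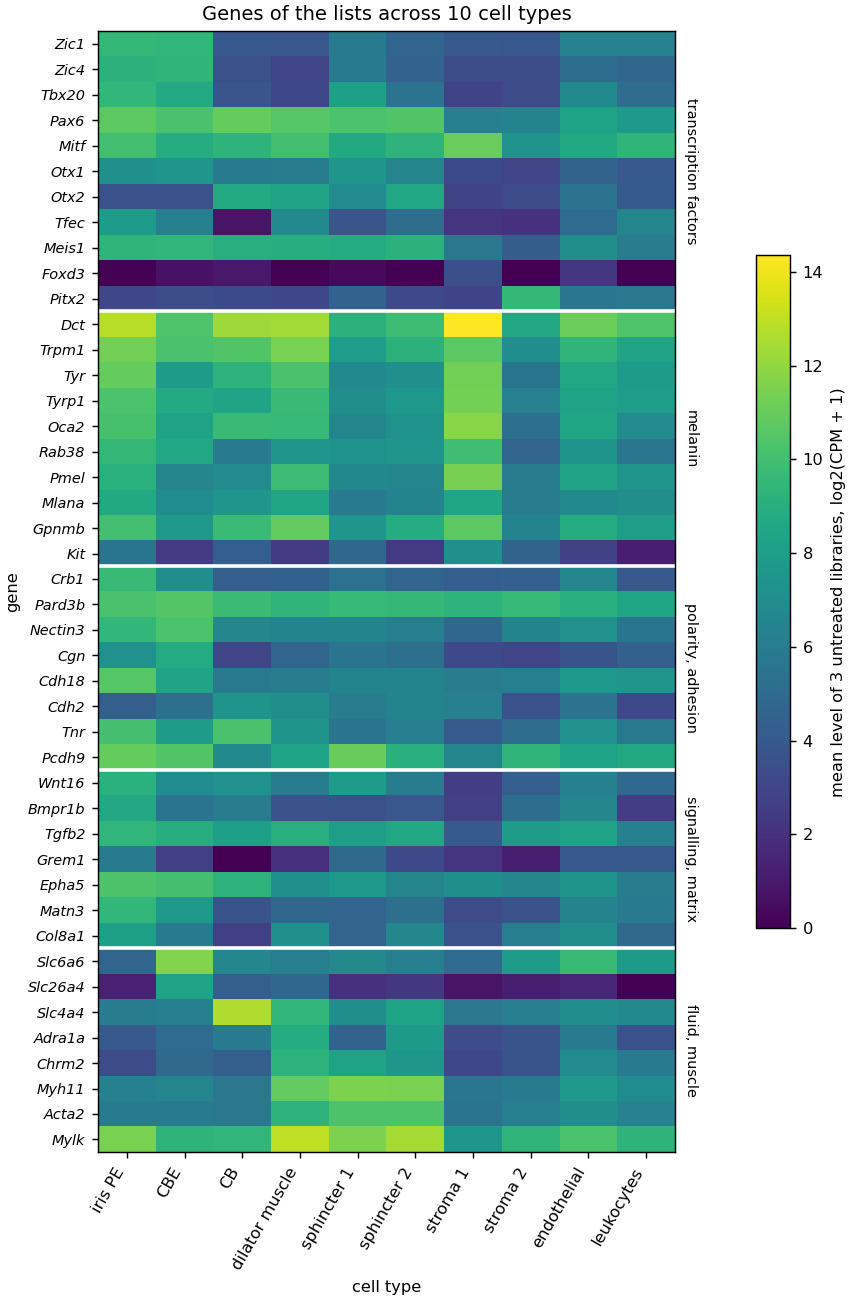
Mean level of named list genes over 3 untreated libraries, as log2(CPM + 1) on the colour scale, with genes in rows and the 10 cell types in columns. *Zic1* and *Zic4* are high in iris PE and CBE, *Dct* is highest in stroma 1 (20924 CPM), and *Slc6a6* and *Slc4a4* mark CBE and CB.

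Epithelial junction and polarity genes were compared next. Against dilator muscle 6 of 20 (30%) were higher in iris PE and none lower, and against CBE 2 of 25 (8%) were higher and 4 (16%) lower. *Pard3b*, a polarity scaffold gene, measured 1224 ± 20.5 CPM in iris PE, 1462 in CBE and 668 in dilator muscle. *Nectin3*, encoding an adhesion protein that links epithelial layers, measured 735 ± 26.8 CPM against 1261 in CBE and 88.3 in dilator muscle. *Tjp1*, encoding the tight junction protein ZO-1, measured 365 ± 18.3 CPM against 288 in CBE and 80.4 in dilator muscle. *Cgn*, encoding the tight junction protein cingulin, measured 151 ± 25.6 CPM in iris PE, 459 in CBE and 24.7 in dilator muscle. In these 4 genes iris PE and CBE were both above dilator muscle. *Scel*, encoding sciellin of stratified epithelia, measured 519 ± 54.1 CPM, its highest mean of the 10 types. It belonged to a list of keratin and simple epithelium genes that were mostly low. Of the 14 measured, only 2 reached 20 CPM in iris PE and 3 had no UMI there.

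The cadherin list was led by *Cdh18*, with 3 of 11 genes (27.3%) higher and 3 lower than in CBE, and 4 of 9 (44.4%) higher and 2 (22.2%) lower than in dilator muscle. *Cdh6* measured 481 ± 21.8 CPM in iris PE beside 118 CPM in dilator muscle. *Cdh2*, encoding N-cadherin, was low in iris PE (19.5 ± 5.56 CPM) beside dilator muscle (135 CPM) and CB (170 CPM). Genes best known from synapses differed in both directions. Of 32 such genes 15 (46.9%) were higher and 6 (18.8%) lower in iris PE than in CB, 8 (25%) were higher and 7 (21.9%) lower than in dilator muscle, and 4 (12.5%) were higher and 5 (15.6%) lower than in CBE. They were 6 and 11 of 31 against sphincter 1, 11 and 7 of 30 against sphincter 2, 19 and 3 of 30 against stroma 1, 8 and 14 of 33 against stroma 2, 15 and 4 of 30 against endothelial cells, and 14 and 1 of 29 against leukocytes. The shares over all genes for the types not yet set beside counts were 13.4% and 10.5% for sphincter 1, 10.1% and 9.71% for sphincter 2, 13.5% and 12.3% for stroma 2, 14.8% and 15.1% for endothelial cells, and 19.4% and 19.7% for leukocytes. *Cadm2* measured 1551 ± 102 CPM in iris PE, 2152 in CBE and 156 in dilator muscle. *Cntn1*, a contactin gene, measured 672 ± 84.4 CPM in iris PE, 1169 in CBE and 40.9 in dilator muscle, and *Sorcs1*, a sorting receptor gene, 1328 ± 222 CPM, the highest mean of the 10 types.

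Signalling genes were grouped into 3 lists. Of the BMP, TGF-beta and activin list, 7 of 24 (29.2%) were higher and none lower than in dilator muscle, with a median log2 ratio of 0.45, and 5 of 25 (20%) were higher and 3 (12%) lower than in CBE. *Tgfb2*, a ligand gene with a known role in the anterior eye, measured 705 ± 97.4 CPM, and *Tgfbr3*, the betaglycan coreceptor gene, 828 ± 41.4 CPM, each the highest mean of the 10 types. *Bmp4* measured 383 ± 34.0 CPM in iris PE, 471 in CBE and 153 in dilator muscle. *Chrdl1*, encoding a BMP antagonist, measured 121 ± 17.6 CPM in iris PE, 108 in CBE and 8.57 in dilator muscle. Of the Wnt list, 2 of 23 (8.70%) were higher and 3 (13.04%) lower than in CBE, and 4 of 23 (17.4%) were higher and 8 (34.8%) lower than in dilator muscle. *Dkk3*, a Dickkopf family gene, measured 682 ± 52.7 CPM in iris PE, 1085 in CBE and 206 in dilator muscle. Of the FGF, Notch and ephrin list, 3 of 18 (16.7%) were higher and 4 (22.2%) lower than in CBE. *Epha5* measured 1303 ± 136 CPM in iris PE, 1127 in CBE and 145 in dilator muscle, and *Fgfr2* 1727 ± 181, 1737 and 1856 CPM in the same order.

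Beside CBE, 16 of 36 matrix genes (44.4%) were lower and 7 (19.4%) higher. Of the list, 26 genes reached 20 CPM in iris PE, so some of the 36 were compared only because of their level in CBE. That choice favours lower calls. The counts differed by type. The counts higher and lower were 9 and 4 of 27 against dilator muscle and 10 and 6 of 27 against CB. They were 11 and 10 of 30 against sphincter 1 and 9 and 5 of 29 against sphincter 2. Against stroma 1 they were 16 and 5 of 29, and against stroma 2 4 and 15 of 34. Against endothelial cells they were 12 and 13 of 35, and against leukocytes 20 and 0 of 27. *Sned1*, encoding a large matrix glycoprotein, measured 472 ± 96.5 CPM in iris PE beside 4748 CPM in CBE, and *Fbln1*, the fibulin-1 gene, 249, 108 and 102 CPM in the 3 iris PE libraries against 1052 CPM in CBE. Replicate 1 was the highest iris PE library for both. *Col8a1*, a short chain collagen gene of Descemet's membrane, measured 283 ± 20.1 CPM in iris PE, its highest mean, and 57.8 CPM in CBE.

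The next list held genes of ion and fluid transport, which the ciliary epithelia use to secrete aqueous humour. Of 24 compared with CBE, 7 (29.2%) were lower and 2 (8.33%) higher. The list was chosen for the ciliary epithelium, and 20 of its genes reached 20 CPM in iris PE. Some of the 24 were thus compared only because of their level in CBE, which favours lower calls. *Gja1*, encoding connexin 43 of gap junctions, was alike in level, at 1448 ± 174 CPM in iris PE, 1440 in CBE and 1392 in CB. *Slc4a5*, a bicarbonate cotransporter gene, measured 602 ± 37.3 CPM in iris PE, 632 in CBE and 1168 in CB. *Trpm3*, a heat sensitive channel gene, measured 3691 ± 393 CPM in iris PE, 8972 in CBE and 346 in dilator muscle. Of the retinoid list, 2 of 12 (16.7%) were higher and 1 (8.33%) lower than in CBE. Against dilator muscle the counts were 2 and 1 of 11, and against CB 3 and 3 of 13. *Rdh5*, a retinol dehydrogenase gene of the visual cycle, had its highest mean in iris PE, at 283 ± 9.52 CPM, against 144 in CBE and 103 in dilator muscle.

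Of the smooth muscle contractile genes, 13 of 14 (92.9%) were lower in iris PE than in dilator muscle and none higher (median log2 ratio -2.46). The list was made of markers of the muscle cell types, so this direction is no test. Only 10 of its genes reached 20 CPM in iris PE, so some of the 14 were compared only because of their level in dilator muscle. *Myh11*, the smooth muscle myosin heavy chain gene, measured 79.4, 77.6 and 77.1 CPM in iris PE beside 1931 CPM in dilator muscle. *Acta2*, the smooth muscle actin gene, measured 82.7, 47.9 and 47.1 CPM against 613 CPM. *Mylk*, the myosin light chain kinase gene, measured 2827 ± 92.6 CPM in iris PE, 8212 in dilator muscle and 657 in CBE. Of 13 adrenergic and muscarinic receptor genes measured, 4 were compared with dilator muscle, and 3 of these (75%) were lower in iris PE. These 3 were compared only because of their level in dilator muscle, a choice that favours lower calls. The remaining gene, *Chrm3*, the M3 receptor of the sphincter, measured 35.5 ± 5.36 CPM in iris PE, 22.3 in dilator muscle and 3958 in sphincter 1. These lists were chosen with earlier results of the same nuclei known, and their counts are a description.

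Variation among iris PE nuclei was measured by the Fano factor, the variance divided by the mean of UMIs after thinning to 1000 UMIs per nucleus, which is 1 for pure counting noise. Over 3454 genes and 3682 nuclei the median was 1.05 and the 99th percentile 1.61, and 13 genes exceeded 2 in the mean of the 3 libraries. Some of the 13 did so only through replicate 1. *Mad1l1* had 2.52 there against 1.89 and 1.99 in replicates 2 and 3, and *Trpm3* 2.49 against 1.83 and 1.75. *Dct* (2.92 ± 0.307, SD of 3 libraries), *Frmpd4* (2.21 ± 0.130) and *Terb1* (2.67 ± 0.165) were above 2 in every untreated library. *Ptgds*, encoding prostaglandin D synthase, ranged from 4.94 in replicate 1 to 2.90 and 2.04 in replicates 2 and 3, and *Myo1c* reached 6.95 in replicate 1 against 1.34 and 1.02. The 10 largest values also held *Malat1* (4.68 ± 0.440), *Gpnmb*, *Mgll*, *Mad1l1* and *Kcnip4*. The markers were below these 10 but above the median gene, with 1.23 for *Zic1* (rank 246), 1.27 for *Wnt16* (rank 187), 1.51 for *Tbx20* (rank 52), 1.61 for *Tnr* (rank 34) and 1.80 for *Cdh18* (rank 20). The last 3 lay above the 95th percentile of 1.28. Ranks and percentiles were taken over all 3454 genes and were not matched for mean level. All 5 markers had larger Fano factors after thinning to 2000 UMIs than to 1000 UMIs. How far the level of a gene sets these ranks was not tested, so they do not show the markers to be unusually variable. Thinning to 2000 UMIs gave 3.81 for *Dct* and 3.38 for *Frmpd4*, but only 1.12 for *Myo1c*, whose mean was 3.11 at 1000 UMIs.

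The share of nuclei assigned to iris PE was 23.1%, 26.0% and 26.4% in the untreated libraries (25.2% ± 1.79). It was 25.2%, 20.3% and 26.6% in the constricted libraries and 24.3% and 25.9% in the dilated libraries. The differences were -1.12 and -0.0763 percentage points, within the spread between libraries (two-sided exact permutation tests, p = 0.7 and 0.9, with a smallest possible p of 0.1). Without CB and CBE nuclei, which depend on the dissection, the untreated mean was 26.9% ± 0.745, the constricted mean 25.9% (p = 0.7 by the exact permutation test) and the dilated mean 28.0% (p = 0.2). The dilated shares of 28.5% and 27.5% then lay above all 3 untreated shares (26.1%, 27.4% and 27.4%).

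The identity genes were then followed into the treated libraries, with UMIs summed over the iris PE nuclei of each of the 8 libraries and tested with edgeR's quasi-likelihood test, Benjamini-Hochberg adjusted over 14128 genes. Both treated groups were set against the same untreated libraries. Calls needed a log2 fold change beyond 0.6 in either direction with an adjusted p below 0.05. With dilation 64 genes were higher (0.453%) and 20 lower (0.142%), and with constriction 1 was higher (0.00708%) and none lower. At an unadjusted p below 0.05 there were 1261 and 617 genes, and DESeq2 called 4 genes higher and 1 lower with constriction. The titles of the libraries carry numbers that fall into separate series, and libraries of 1 series deviated together. With the series as a term, in which constricted replicate 2 stood alone and so added nothing, the counts with dilation were 245 higher and 123 lower.

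None of the 5 markers passed with either treatment. *Cdh18* measured 2028, 1882 and 1598 CPM in constricted and 1566 and 1492 CPM in dilated libraries, with log2 fold changes of 0.30 ± 0.13 (SE) and 0.07 ± 0.15. The constricted values lay above all 3 untreated values. *Wnt16* measured 414 and 353 CPM in dilated libraries, below all 3 untreated values, and its log2 fold change of -0.55 ± 0.20 had an adjusted p of 0.38 in edgeR's test. *Tnr* measured 1455 and 1380 CPM in dilated libraries, above all 3 untreated values, with a log2 fold change of 0.38 ± 0.16 and an adjusted p of 0.49 in edgeR's test. *Zic1*, *Tbx20* and *Crb1* had log2 fold changes with dilation of 0.05, -0.18 and -0.04, and their dilated and untreated values overlapped.

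Of the 25 genes named as leading, 1 was higher and 2 were lower with dilation, where 0.453% of all genes were higher and 0.142% lower, and none passed with constriction. The leading genes were chosen for high levels in the same untreated libraries. That choice favours falls, so their counts do not compare directly with those over all genes. With the library-number series as a term, 5 leading genes were called with dilation. *Smoc2* fell from 12.5, 21.9 and 28.3 CPM to 6.41 and 4.79 CPM (log2 fold change -1.92 ± 0.35, adjusted p = 0.0281, edgeR), with no overlap of the groups. *Abcc8* rose from 42.6, 58.1 and 51.7 CPM to 99.6 and 137 CPM (1.23 ± 0.22, adjusted p = 0.0250, edgeR). The noncoding *Gm19299* fell from 53.5, 65.0 and 71.4 CPM to 29.6 and 28.1 CPM (-1.12 ± 0.19, adjusted p = 0.0182, edgeR). Each call depended on single libraries, while the log2 fold changes kept their sign where a call was lost, from -2.13 to -1.64 for *Smoc2*, from 0.94 to 1.35 for *Abcc8* and from -1.12 to -1.01 for *Gm19299*. *Smoc2* lost it without either dilated library, constricted replicate 2, or untreated replicate 2 or 3 (adjusted p 0.0573 to 0.188). *Abcc8* lost it without dilated replicate 2, or untreated replicate 2 or 3 (0.0691 to 0.251), and *Gm19299* without either dilated library, or untreated replicate 2 or 3 (0.0967 to 0.140).

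**Figure D5:**
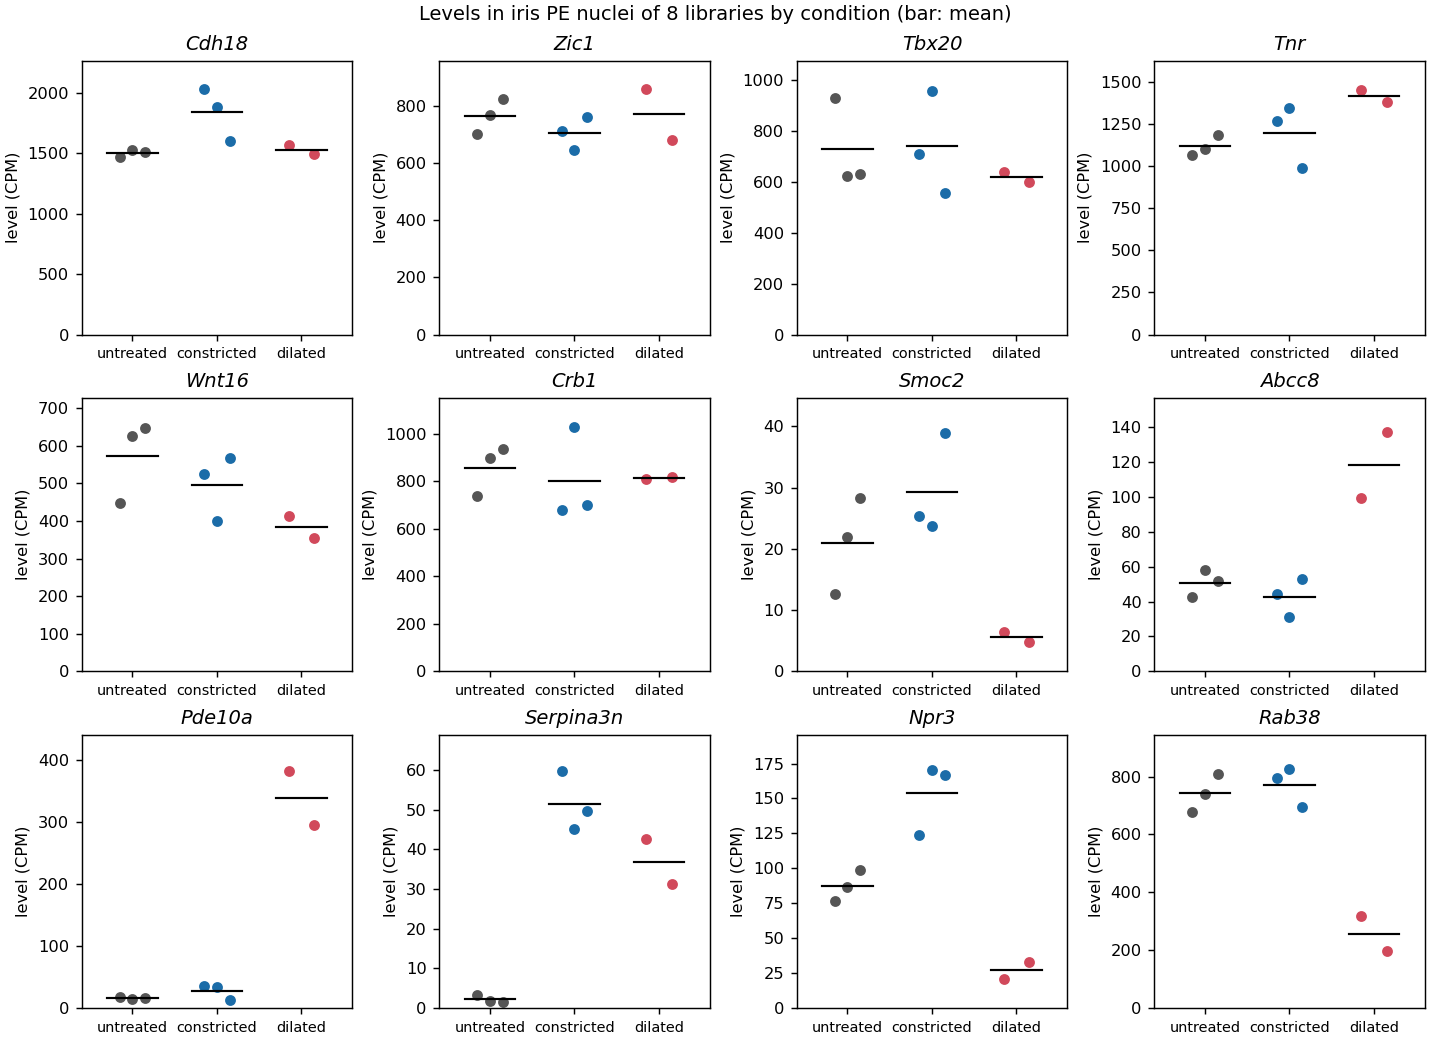
Levels in iris PE nuclei (CPM, vertical axes from 0) in the 3 untreated, 3 constricted and 2 dilated libraries, with 1 point per library and a bar at the mean. Dilated and untreated values overlap for *Cdh18*, *Zic1* and *Tbx20*, while the dilated values lie above the untreated ones for *Tnr* and below them for *Wnt16*. *Pde10a* is at 383 and 296 CPM in the dilated libraries, and *Serpina3n* is at 45.1 to 59.8 CPM in the constricted ones.

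The 5 largest increases with dilation were in genes that were neither markers nor leading genes. *Pde10a*, encoding a phosphodiesterase of cyclic AMP and cyclic GMP, rose with dilation from 18.4, 14.1 and 15.3 CPM to 383 and 296 CPM (log2 fold change 4.49 ± 0.29, adjusted p = 8.53e-06, edgeR). *Serpina3n*, an acute phase protease inhibitor gene, rose from 3.34, 1.79 and 1.60 CPM to 42.6 and 31.2 CPM with dilation (4.30 ± 0.27) and to 59.8, 45.1 and 49.8 CPM with constriction (4.76 ± 0.26, adjusted p = 1.76e-06, edgeR), where it was the 1 gene called. *Tnfrsf12a*, a receptor gene, rose with dilation by 3.38 ± 0.44, *Pde3b*, another phosphodiesterase gene, by 3.37 ± 0.38 and *Gm45671* by 3.92 ± 0.57. Without untreated replicate 3, *Tnfrsf12a* had an adjusted p of 0.0525, and *Gm45671* lost its call without dilated replicate 1 or untreated replicate 2 or 3 (0.0541 to 0.145).

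The largest decreases with dilation were in *9230020A06Rik* (-3.39 ± 0.62), *Gm39075* (-2.33 ± 0.24), *Smoc2*, *Gm12153* (-1.70 ± 0.21) and *Npr3* (-1.69 ± 0.25). *Npr3*, the natriuretic peptide clearance receptor gene, measured 76.9, 86.5 and 98.4 CPM untreated and 21.0 and 33.2 CPM dilated. *Npr3* lost the call without dilated replicate 1 (adjusted p = 0.0783) or untreated replicate 3 (adjusted p = 0.0534), both by edgeR. *9230020A06Rik* lost it without constricted replicate 2, dilated replicate 2, or untreated replicate 2 or 3 (0.0620 to 0.148). Where calls among the largest increases and decreases were lost, the log2 fold changes kept their sign. They were 2.98 for *Tnfrsf12a* and 3.53 to 4.52 for *Gm45671*. For *9230020A06Rik* they ran from -3.48 to -2.78 and for *Npr3* from -1.57 to -1.32. *Gm39075* was also one of the genes that separated iris PE from dilator muscle and CB.

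Of 26 melanin genes tested with dilation, none rose and 2 fell, beside 0.453% of all genes that rose and 0.142% that fell. *Tyr* fell from 1854, 1915 and 2107 CPM to 837 and 889 CPM (log2 fold change -1.14 ± 0.18, adjusted p = 0.0154, edgeR), and *Rab38* from 676, 742 and 808 CPM to 318 and 196 CPM (-1.49 ± 0.20, adjusted p = 0.00407, edgeR). The median over the list was -0.14, against -0.0025 over all genes. The 5 stroma 1 markers, none of them at 0 and *Ednrb* the most abundant, summed to 24.2, 17.3 and 22.0 CPM in untreated iris PE and to 9.01 and 8.22 CPM in dilated iris PE, with no overlap of the groups. Their sums in constricted iris PE, 12.2, 6.56 and 5.61 CPM, also lay below all 3 untreated values. *Dct*, which is highest in stroma 1, measured 10979 and 9268 CPM in dilated iris PE, above all 3 untreated values, and was not called (log2 fold change 0.56 ± 0.17, adjusted p = 0.239, edgeR). The part of stroma 1 transcripts in the melanin gene values was not tested. The *Tyr* call was lost without either dilated library or untreated replicate 2 or 3 (adjusted p 0.0691 to 0.124), and the *Rab38* call without dilated replicate 2 (0.0538). *Mylk* was the 1 contractile gene of 15 called, falling from 2721, 2874 and 2887 CPM to 1580 and 1198 CPM (-0.99 ± 0.18, adjusted p = 0.0279, edgeR), a call lost without either dilated library or untreated replicate 2 or 3 (0.0725 to 0.278). The 8 dilator markers, none of them at 0 and *Unc13c* the most abundant, summed to 504, 588 and 547 CPM in untreated and to 479.6 and 356 CPM in dilated iris PE, again without overlap. In constricted iris PE these markers summed to 515, 466 and 386 CPM, which overlapped the untreated values. Their part in the *Mylk* values was not tested. *Slc6a6*, low in untreated iris PE beside CBE, rose from 24.2, 26.7 and 23.3 CPM to 113 and 132 CPM (2.34 ± 0.17, adjusted p = 1.61e-05, edgeR). It was the 1 gene called of the 8 CBE markers, whose median log2 fold change in iris PE with dilation was 0.56 against -0.0025 over all genes. The other 7 CBE markers, of which *Sned1* was the most abundant and none was at 0, summed to 999.7, 788.7 and 639.7 CPM in the untreated and to 1183 and 821 CPM in the dilated libraries, so the groups overlapped. CBE made up 5.34%, 2.47% and 2.09% of the untreated nuclei and 7.59% and 3.21% of the dilated nuclei. The part of CBE transcripts in the rise of *Slc6a6* was not tested. Where a call was lost, the log2 fold changes with dilation kept their sign. They ran from -1.22 to -1.05 for *Tyr* and from -1.15 to -0.84 for *Mylk*, and that of *Rab38* was -1.22. With constriction no gene of these lists was called.

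The other list members called with dilation were 6 that rose and 1 that fell, beside 0.453% higher and 0.142% lower of all genes. *Optc*, the matrix protein gene opticin, rose from 15.045, 7.36 and 12.4 CPM to 61.7 and 47.6 CPM (log2 fold change 2.37 ± 0.25, adjusted p = 0.000988, edgeR), and the call held without any single library. *Matn2*, of the same list of 41 matrix genes tested, rose by 1.23 ± 0.17, a call lost without dilated replicate 1 or untreated replicate 3 (adjusted p 0.0693 and 0.0673). *Aqp1*, encoding the water channel aquaporin-1, rose from 74.4, 90.9 and 94.5 CPM to 159 and 157 CPM (0.89 ± 0.17), and with *Slc6a6* it was 1 of 2 genes called of 29 tested in the fluid transport list. The Wnt list held *Fzd1*, a Frizzled receptor gene (1.22 ± 0.23), and *Rspo3*, an R-spondin gene (2.54 ± 0.49) that reached only 6.58 and 8.22 CPM, as 2 of 36 tested. *Vim*, the vimentin gene, rose by 1.12 ± 0.20 as 1 of 4 tested in the list of keratin and simple epithelium genes. *Rp1*, a photoreceptor axoneme gene, fell from 39.3, 41.2 and 37.5 CPM to 18.9 and 16.8 CPM (-1.10 ± 0.22, adjusted p = 0.0451, edgeR). The calls of *Aqp1*, *Fzd1*, *Rspo3*, *Vim* and *Rp1* were lost without either dilated library or untreated replicate 2 or 3. Those of *Aqp1*, *Fzd1* and *Rspo3* were also lost without constricted replicate 2, and those of *Aqp1* and *Rp1* without untreated replicate 1. The log2 fold changes kept their sign where these calls were lost. They ran from 0.80 to 0.97 for *Aqp1*, 1.16 to 1.29 for *Fzd1* and 2.35 to 2.84 for *Rspo3*. For *Vim*, *Matn2* and *Rp1* they ran from 1.04 to 1.21, 1.12 to 1.19 and -1.14 to -1.05.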

How the data were processed

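Nuclei were isolated from pooled irides, and libraries were made with droplet capture and unique molecular identifiers (UMIs). Per the submitters' processing notes, the authors aligned reads to mm10 with Cell Ranger 3.1.0 and clustered the nuclei of all libraries with Seurat after filtering on genes detected and on mitochondrial transcripts. As deposited, each matrix gives the raw UMI count of every gene in every nucleus, as whole numbers. The authors also deposited, per nucleus, the total count, the number of genes, the percent of mitochondrial transcripts and the assigned cell type, which was used as deposited. The 3 untreated libraries held 5189437, 19259432 and 20000682 UMIs in 1479, 6392 and 6494 nuclei. UMI sums recomputed here equalled the deposited totals or differed by at most 13.

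The UMIs of a cell type were added up within each library and expressed as CPM, with a pseudocount of 1 CPM in ratios. Condition tests used edgeR 4.0.16 (R 4.3.3) with TMM scaling and its expression filter on sums over iris PE nuclei of all 8 libraries, and DESeq2 1.42.0 as an alternative. All standard errors and adjusted p-values with conditions are from edgeR's quasi-likelihood test, and they measure the spread between libraries, each 1 pool of irides. The script was tested on simulated data. Doublets were called with Scrublet in scanpy 1.11.5. It marked 158 of the 14365 untreated nuclei (1.10%), among them 9 iris PE nuclei (0.242%) and 17 endothelial nuclei (11.4%). The doublets were removed in an alternative. Gene positions are GENCODE on mm10, with 22462 of 22873 genes matched, and promoters are RefSeq windows. Strand and overlapping genes were not separated.

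Members and gene lists were chosen with earlier results of these data known. The genes named are the 5 markers, the 25 leading genes with the largest ratio, the 10 largest ratios in each direction against CBE, CB and dilator muscle, the genes lowest in iris PE, the 10 largest Fano factors, examples of each list, and, by condition, all of the markers and leading genes with the 5 largest calls in each direction. Other named list members called with dilation were chosen after their values were seen. Alternatives were another scaling, pseudocount, floor, fold or filter, a mean over nuclei, other sets of types or libraries, removal of doublets or of nuclei with shared barcodes (the last added after seeing the data), a replicate block, a library-number term and leaving out each library.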

Additional observations from a re-analysis of the deposited data

How the results depend on the processing

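The number of leading genes stayed between 25 and 46 under every alternative run (34 as reported). TMM scaling gave 39 with all 34 shared, a mean over nuclei 31 with 29 shared, all 8 libraries 26 with 20 shared, and a pseudocount of 10 CPM gave 25. Without untreated replicates 1, 2 and 3 there were 39, 33 and 32, with 29, 32 and 28 shared. Requiring 4-fold left 83 genes higher and 209 lower against CBE, 379 and 218 against CB, and 225 and 200 against dilator muscle. A floor of 100 CPM left 187 and 198, 335 and 231, and 237 and 206.

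The counts with dilation (64 higher, 20 lower) depended on the test and on single libraries. They were 180 and 75 with no low-count filter, 110 and 49 with DESeq2, and 245 and 123 with the library-number series as a term. Leaving out 1 library gave from 11 to 103 higher and from 4 to 34 lower. The counts were 40 and 6 without dilated replicate 1, 16 and 4 without dilated replicate 2, 19 and 7 without untreated replicate 2, 11 and 4 without untreated replicate 3, 103 and 34 without constricted replicate 3, and 31 genes were lower without untreated replicate 1. With constriction (1 higher, 0 lower) the counts were 2 and 0 with upper quartile scaling, 6 and 6 with no filter, 3 and 0 with the series term, 4 and 1 with DESeq2, and from 1 to 2 and from 0 to 1 with 1 library left out. With 2 dilated libraries, leaving 1 out assumes that the other varies like the remaining groups.

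Libraries with the same replicate number did not all deviate together (correlations from -0.029 to 0.437), and not every library correlated best with its own number, so the numbers were not taken to pair them. With the replicate block, the counts were 125 and 53 with dilation and 2 and 4 with constriction.

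The difference in iris PE share with dilation turned to 1.09 percentage points without CB and CBE nuclei. Some uncalled log2 fold changes near 0 changed sign. With 1 library left out, those with dilation ran from -0.077 to 0.17 for *Zic1*, from -0.27 to 0.0047 for *Tbx20* and from -0.15 to 0.048 for *Crb1*, and that of *Tbx20* with constriction from -0.20 to 0.23. With the series term they were 0.0060 for *Crb1* with dilation and -0.24 and -0.00063 for *Tbx20* and *Tnr* with constriction. The 3 calls among the leading genes with dilation became 0 without dilated replicate 2 or untreated replicate 2 or 3, and 5 with the series term.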

Other observations

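Genes of tissues next to the iris were looked at outside the comparisons above. Among the 7 lens genes measured, *Bfsp2*, encoding a beaded filament protein of lens fibres, measured 290, 418 and 411 CPM in iris PE, 464 CPM in dilator muscle and 101 CPM in CBE, and *Cryab*, a small heat shock protein gene, 87.8, 93.7 and 90.3 CPM in iris PE. The lens crystallin gene *Cryaa*, in contrast, was at 1.11 CPM. Of the rod genes, *Rp1*, which was called lower with dilation, had a mean of 39.3 CPM in untreated iris PE, 72.8 CPM in CBE and 4.89 CPM in dilator muscle. The highest of the corneal and of the nerve genes were low, with *Col8a2* at 23.0 CPM and *Mbp* at 23.9 CPM. *Rpe65*, the retinoid isomerase gene of the retinal pigment epithelium, was at 0.941 CPM.

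*Opn4*, the melanopsin gene, measured 26.8, 31.6 and 31.3 CPM in iris PE, beside 24.2 CPM in dilator muscle and 23.4 CPM in CBE. Of 14 channel genes 5 (35.7%) were higher and none lower in iris PE than in dilator muscle, where all genes gave 6.78% and 5.96%, and 3 (21.4%) were higher and 1 (7.14%) lower than in CBE, where all genes gave 5.09% and 6.06%. *Foxp2*, a forkhead factor gene from the periocular list, measured 1085 ± 116 CPM in iris PE, 500.5 CPM in CBE and 1839 CPM in dilator muscle. *Ptgds* varied between libraries, with 6897, 2597 and 3062 CPM in the iris PE of replicates 1, 2 and 3 and 6691 ± 3545 CPM in CBE.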
